A study of Mus musculus with 9 samples.

Results

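The genes described here are 10 core transcriptional targets of p53 in the mouse: Cdkn1a, Eda2r, Phlda3, Ccng1, Mdm2, Pmaip1, Bax, Bbc3, Zmat3 and Trp53inp1. They were taken by gene symbol from a table of 31804 genes, and all 10 passed the filter on low counts that left 16438 genes for testing. The 10 genes were chosen by name with results of these same 9 libraries known: the values in view were the differences of several of them between Camta1 shRNA and control. Their differences from control are therefore given as a description with no p-value. Where calls among them in the fit across all genes are counted, the counts support nothing about the list. The difference between both Camta1 shRNAs was tested. It uses the same shRNA libraries as the differences in view, so it is not independent of the choice.

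The study measured polyA RNA by sequencing in hippocampal tissue of male C57BL/6NCrl mice, an inbred strain. Each mouse was 8 weeks old when its dorsal hippocampus was injected stereotaxically with recombinant adeno-associated virus (rAAV) expressing a short hairpin RNA (shRNA), and tissue was taken 3 weeks after. The infected region was recognised by fluorescence of the red protein mCherry and dissected. Camta1 encodes a calmodulin-binding transcription activator, and the comparison asks which transcripts change when it is knocked down in the adult hippocampus. In the first group the virus carried shRNA A against Camta1, in the second it carried shRNA B, which targets Camta1 with another sequence, and in the control group it carried a shRNA without a target. Each group had 3 animals, per the series' design, so every animal received a virus and a hairpin. The dissected tissue mixes infected and uninfected cells of all types. In such bulk samples, fewer or more cells of a type and less or more RNA per cell cannot be told apart.

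The protein p53, encoded by Trp53, is a transcription factor that is kept low by continual degradation and accumulates after DNA damage and other stress. It binds a response element made of a pair of half-sites and raises genes that halt the cell cycle, trigger apoptosis or restrain p53 itself. Mdm2 is the ubiquitin ligase that marks p53 for degradation, and because p53 also induces Mdm2 the pair forms a negative feedback loop. In neurons, p53 is known mostly for cell death after injury, since mature neurons do not divide.

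Promoter windows are shown for the 4 genes that were above control in all Camta1 shRNA libraries, and for 2 others, Mdm2 and Bax, whose windows hold a half-site. Each runs from 250 bases before to 50 bases after the transcription start, 5′ to 3′ on the gene's strand, from RefSeq on build GRCm38.p6. Capitals mark exact matches to the p53 half-site consensus, a motif of 10 letters that is its own reverse complement, so that both strands are searched at once.
Cdkn1a, chr17:29090729-29091028, plus strand: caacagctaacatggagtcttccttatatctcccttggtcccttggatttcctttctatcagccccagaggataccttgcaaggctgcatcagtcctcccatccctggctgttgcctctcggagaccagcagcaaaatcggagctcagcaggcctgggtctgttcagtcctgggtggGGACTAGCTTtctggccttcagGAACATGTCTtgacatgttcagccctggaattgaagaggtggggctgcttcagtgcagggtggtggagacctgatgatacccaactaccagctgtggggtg
Ccng1, chr11:40755237-40755536, minus strand: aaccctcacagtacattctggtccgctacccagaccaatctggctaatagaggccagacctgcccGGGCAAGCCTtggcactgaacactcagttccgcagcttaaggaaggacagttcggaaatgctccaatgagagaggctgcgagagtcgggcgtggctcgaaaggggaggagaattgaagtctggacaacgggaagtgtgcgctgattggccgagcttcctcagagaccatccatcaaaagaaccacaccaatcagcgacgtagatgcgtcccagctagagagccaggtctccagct
Eda2r, chrX:97377160-97377459, minus strand: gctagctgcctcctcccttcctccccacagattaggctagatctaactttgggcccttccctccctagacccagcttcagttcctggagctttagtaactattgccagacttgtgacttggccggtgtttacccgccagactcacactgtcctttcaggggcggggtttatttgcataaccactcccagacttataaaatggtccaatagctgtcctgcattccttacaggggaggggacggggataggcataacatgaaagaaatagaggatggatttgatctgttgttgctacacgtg
Phlda3, chr1:135765835-135766134, plus strand: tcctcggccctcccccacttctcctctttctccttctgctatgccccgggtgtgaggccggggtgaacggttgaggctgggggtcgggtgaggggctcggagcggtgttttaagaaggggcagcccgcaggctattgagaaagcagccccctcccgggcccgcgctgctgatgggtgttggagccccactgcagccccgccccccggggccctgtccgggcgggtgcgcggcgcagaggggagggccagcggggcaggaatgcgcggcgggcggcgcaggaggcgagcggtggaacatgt
Mdm2, chr10:117710709-117711008, minus strand: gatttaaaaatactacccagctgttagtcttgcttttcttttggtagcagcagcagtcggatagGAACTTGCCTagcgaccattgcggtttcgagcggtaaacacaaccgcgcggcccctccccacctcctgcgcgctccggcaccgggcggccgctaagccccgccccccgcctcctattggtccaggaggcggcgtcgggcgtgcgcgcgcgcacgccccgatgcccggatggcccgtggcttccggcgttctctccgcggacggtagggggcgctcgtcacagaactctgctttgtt
Bax, chr7:45466849-45467148, minus strand: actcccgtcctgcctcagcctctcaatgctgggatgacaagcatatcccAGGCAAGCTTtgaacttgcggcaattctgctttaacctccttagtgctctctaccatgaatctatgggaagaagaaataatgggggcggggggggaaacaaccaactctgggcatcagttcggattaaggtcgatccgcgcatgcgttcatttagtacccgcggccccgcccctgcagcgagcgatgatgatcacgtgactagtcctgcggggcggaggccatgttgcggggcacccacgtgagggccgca

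Of the 10 genes, 7 had a promoter window at hand, and 4 of them held at least 1 half-site without a mismatch. Across 32817 windows of the same length, 8.36% held one. That share counts windows and not genes, and Cdkn1a and Bbc3 each had more than 1 window. The Cdkn1a window held 2, GGACTAGCTT at -73 to -64 and GAACATGTCT at -51 to -42 from the start, with 12 bases between them. A pair of exact half-sites with 0 to 13 bases between them, as in this Cdkn1a window, was present in 0.0731% of all windows. Half-sites with a mismatch were not searched, and whether p53 binds this pair was not tested. A second Cdkn1a window, at another annotated start, held none. Ccng1 had GGGCAAGCCT at -185 to -176, Mdm2 had GAACTTGCCT at -186 to -177, and Bax had AGGCAAGCTT at -201 to -192. No exact half-site was in the windows of Eda2r, Phlda3 or Bbc3, which says only that these letters are not within these bases. The windows with a half-site thus belong to Cdkn1a and Ccng1, above control under both shRNAs, and to Mdm2 and Bax. Mdm2 overlapped the controls, and Bax was above them by a small margin with shRNA B only. Windows for Pmaip1, Zmat3 and Trp53inp1 were not used here.

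Libraries held 29123744 to 38189288 counts on genes, so that 3 reads amounted to 0.0776 to 0.102 CPM after scaling, where CPM is a gene's share of the counts of its library on a common scale. Levels below are CPM scaled by the trimmed mean of M-values (TMM), with means ± SD over 3 libraries. Camta1 had 231, 174 and 254 CPM under shRNA A and 239, 146 and 266 CPM under shRNA B, against 427, 455 and 442 CPM in controls, or 49.8% and 49.1% of the control mean. Its 6 shRNA libraries lay below all controls, while edgeR's adjusted p was 0.388 for shRNA A and 0.0776 for shRNA B. The tissue carried neuronal markers at a high level, with summed CPM of 13 genes of 16330 to 17350 (shRNA A), 16730 to 17330 (shRNA B) and 16590 to 18770 (control). Control replicate 3 stood apart by its choroid plexus markers, which summed to 1039 CPM there and to between 23.7 and 45.3 CPM elsewhere. Summed levels of 20 interferon-response genes were 174.5 to 236.8 CPM with shRNA A and 308.7 to 590 CPM with shRNA B, against 150 to 157.6 CPM in controls, with the highest value in shRNA B replicate 2. Those of 15 microglial genes were 658 to 747.7, 752.2 to 845.3 and 617.2 to 654.8 CPM in the same order.

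Transcripts of Cdkn1a, Eda2r, Phlda3 and Ccng1 were higher in all 6 Camta1 shRNA libraries than in any control. Pmaip1 and, by a small margin, Bax were above the controls in all 3 shRNA B libraries and overlapped them with shRNA A, while Trp53inp1, Mdm2, Bbc3 and Zmat3 overlapped the controls. Of all genes tested, 2.51% had every Camta1 shRNA library above every control. With shRNA A alone 4 of the 10 had all libraries above the controls (6.84% of all genes), and with shRNA B alone 6 (9.27%). Among the 10 genes, log2 fold changes were positive for 8 with shRNA A and for 9 with shRNA B, with medians of 0.30 and 0.52, beside 0.00 for all genes in each comparison. By edgeR's adjusted p under 0.05, 1 of the 10 (Eda2r) was called higher with shRNA A, where 0.0243% of all genes were called, and 5 (Cdkn1a, Eda2r, Phlda3, Ccng1 and Pmaip1) with shRNA B, where 1.02% were called, 0.779% higher and 0.237% lower. Since these contrasts served to choose the genes, nothing is read from those counts. Both comparisons use the same 3 control libraries.

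**Figure D1:**
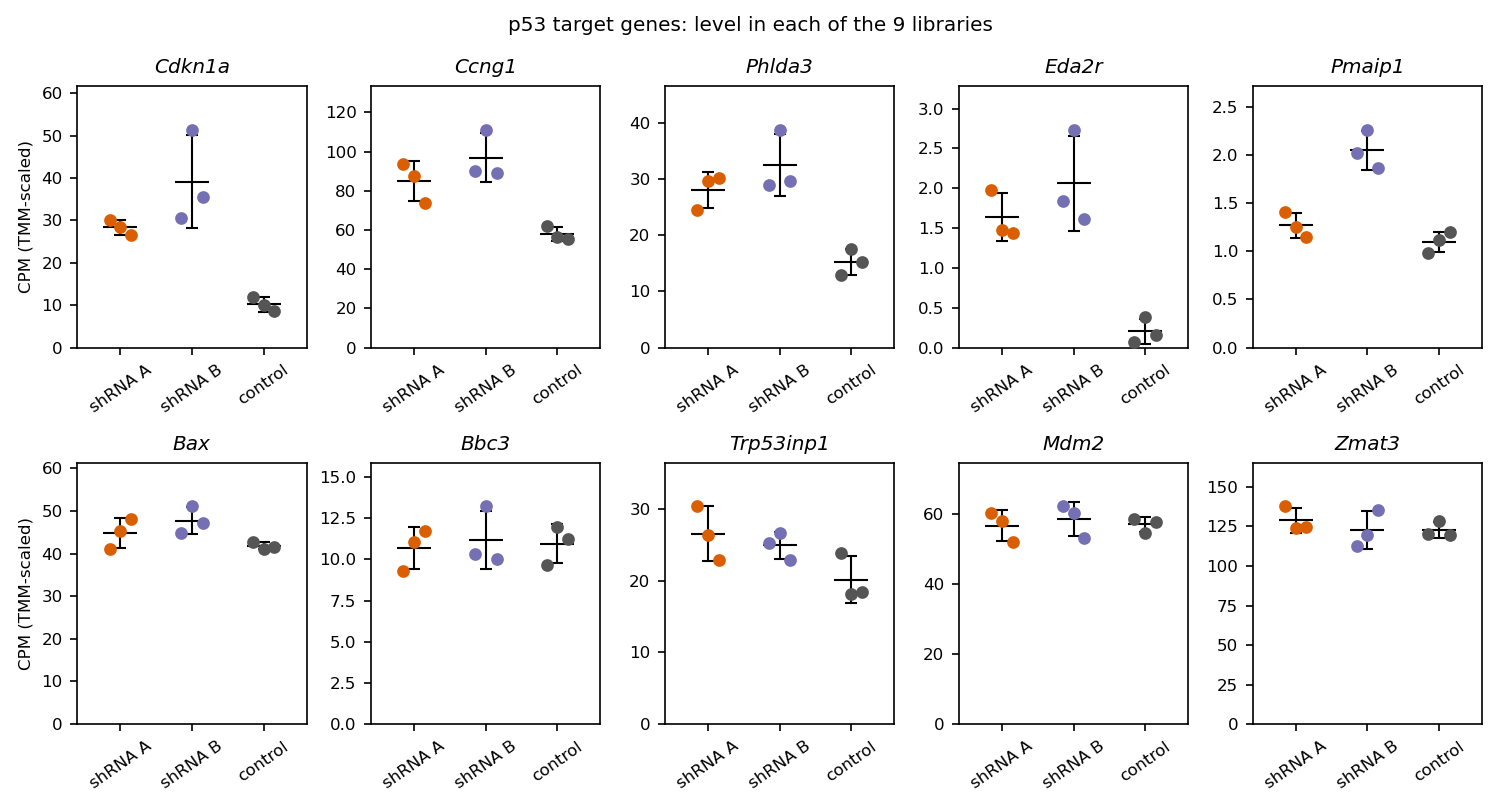
Level of each of the 10 genes in every library (points, CPM scaled by TMM, linear axes starting at 0), with mean and SD of 3 libraries as lines, for shRNA A, shRNA B and control from left to right. For Cdkn1a, Ccng1, Phlda3 and Eda2r every point of both shRNAs lies above every control, for Pmaip1 and Bax this holds for shRNA B, and for Mdm2, Bbc3, Zmat3 and Trp53inp1 the groups overlap.

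The genes that act on the cell cycle and its regulation come first. Cdkn1a (ENSMUSG00000023067, chromosome 17) encodes p21, an inhibitor of cyclin-dependent kinases and the classical p53 target for cell cycle arrest. It measured 30.0, 28.5 and 26.5 CPM with shRNA A and 30.5, 51.4 and 35.6 CPM with shRNA B, against 12.01, 10.1 and 8.53 CPM in controls. All 6 shRNA libraries exceeded the highest control, the shRNA B libraries exceeded all of shRNA A, and shRNA B replicate 2 stood above the rest. The means were 28.3 ± 1.80 CPM (shRNA A), 39.2 ± 10.9 CPM (shRNA B) and 10.2 ± 1.74 CPM (control), and the log2 fold changes against control were 1.48 ± 0.20 and 1.94 ± 0.20 (SE), or 2.78-fold and 3.84-fold. Without shRNA B replicate 2 the second was 1.70. An unstranded library cannot separate Cdkn1a from an opposite-strand transcript annotated over 273 bases of its exons (AC167363.2).

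Ccng1 (ENSMUSG00000020326, chromosome 11) encodes cyclin G1, an atypical cyclin that binds a subunit of the phosphatase PP2A and acts on Mdm2. Its levels were 93.6, 87.3 and 73.8 CPM with shRNA A and 90.2, 111 and 89.1 CPM with shRNA B, against 62.1, 56.5 and 55.4 CPM in controls. Here too no shRNA library reached down to the controls, but shRNA A and shRNA B overlapped. The means were 84.9 ± 10.1, 96.8 ± 12.4 and 58.0 ± 3.61 CPM for shRNA A, shRNA B and control, with log2 fold changes of 0.55 ± 0.10 and 0.74 ± 0.10.

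Of the genes in receptor signalling and survival, Eda2r and Phlda3 were above control in every library of both shRNAs. Eda2r (ENSMUSG00000034457, chromosome X) encodes the ectodysplasin A2 receptor, a member of the tumour necrosis factor receptor family. It measured 1.98, 1.48 and 1.44 CPM with shRNA A and 1.84, 2.74 and 1.61 CPM with shRNA B, against 0.0678, 0.382 and 0.157 CPM in controls. The controls rest on 2, 12 and 5 reads, and replicate 1 lies under the level of 3 reads, so the size of the fold is loosely set. Eda2r passed the filter on low counts through its shRNA libraries and not through its controls. The summed reads gave 152 with shRNA A and 208 with shRNA B against 19 in controls, a depth-corrected ratio of 7.98 (95% exact interval 4.94 to 13.6) and 9.99 (6.24 to 16.9), which covers counting error only. The fitted log2 fold changes were 2.97 ± 0.41 and 3.31 ± 0.40. Without control replicate 2, which holds 12 of the 19 control reads, they were 3.79 and 4.12. Without control replicate 1, which holds 2 of those reads, they were 2.585 and 2.915.

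Phlda3 (ENSMUSG00000041801, chromosome 1) encodes a small pleckstrin homology domain protein that competes with the kinase Akt for membrane lipids. Phlda3 had 24.4, 29.7 and 30.1 CPM under shRNA A and 28.9, 38.7 and 29.7 CPM under shRNA B, against 12.9, 17.5 and 15.2 CPM in controls. The groups with a Camta1 shRNA overlapped each other and not the controls. The means were 28.1 ± 3.196 CPM (shRNA A), 32.4 ± 5.47 CPM (shRNA B) and 15.2 ± 2.31 CPM (control), 1.85-fold and 2.13-fold, with log2 fold changes of 0.88 ± 0.14 and 1.09 ± 0.14.

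The apoptotic members divided. Pmaip1 encodes Noxa and Bbc3 encodes Puma, which both carry only the BH3 domain of the BCL-2 family and neutralise its pro-survival members, whereas Bax encodes the effector that permeabilises the outer mitochondrial membrane. Pmaip1 measured 1.41, 1.26 and 1.15 CPM with shRNA A and 2.02, 2.26 and 1.87 CPM with shRNA B, against 0.984, 1.11 and 1.197 CPM in controls, on 29 to 78 reads per library. Its shRNA B libraries lay above all others, and shRNA A overlapped the controls. The log2 fold changes were 0.21 ± 0.19 for shRNA A and 0.90 ± 0.18 for shRNA B.

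Bbc3 measured 9.30, 11.1 and 11.7 CPM with shRNA A and 10.3, 13.2 and 10.04 CPM with shRNA B, against 9.63, 11.97 and 11.3 CPM in controls. All 3 groups overlapped, and the log2 fold changes were -0.04 ± 0.13 and 0.03 ± 0.13. Bax measured 41.0, 45.4 and 48.1 CPM with shRNA A and 44.9, 51.2 and 47.2 CPM with shRNA B, against 42.8, 41.2 and 41.5 CPM in controls. The 3 shRNA B libraries of Bax were above the controls by a small margin, with a log2 fold change of 0.19 ± 0.07, and 0.10 ± 0.07 for shRNA A. An annotated gene on the same strand, Gm45808, shares 192 exonic bases with Bax, so part of these reads cannot be assigned.

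Trp53inp1, whose protein acts in p53 phosphorylation and autophagy, measured 30.5, 26.5 and 22.9 CPM with shRNA A and 25.3, 26.7 and 23.0 CPM with shRNA B, against 23.9, 18.1 and 18.5 CPM in controls. Control replicate 1 reached into both shRNA groups, and the log2 fold changes were 0.40 ± 0.13 and 0.31 ± 0.13.

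Mdm2 and Zmat3 overlapped the controls with both shRNAs. Mdm2, the negative regulator in the feedback loop, measured 60.2, 57.9 and 51.8 CPM with shRNA A and 62.2, 60.3 and 53.1 CPM with shRNA B, against 58.5, 54.6 and 57.7 CPM in controls. The log2 fold changes were -0.01 ± 0.08 and 0.04 ± 0.08, and the groups overlapped. Zmat3, an RNA-binding zinc finger protein that acts on splicing, measured 138, 124 and 125 CPM with shRNA A and 113, 119 and 136 CPM with shRNA B, against 120, 129 and 120 CPM in controls. Its log2 fold changes were 0.07 ± 0.08 and -0.004 ± 0.078.

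**Figure D2:**
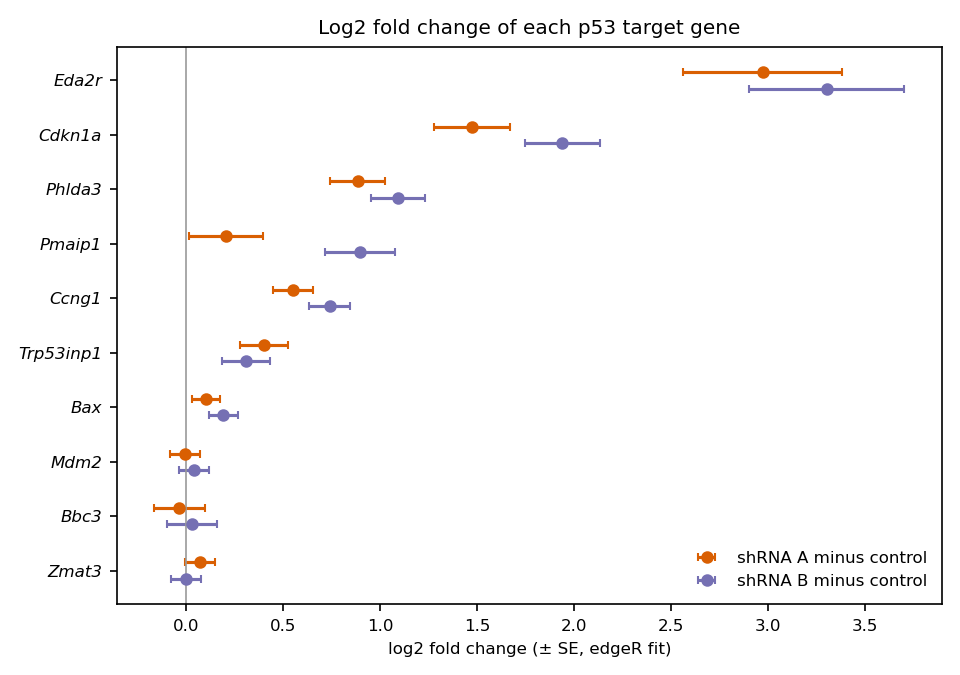
Log2 fold change of each of the 10 genes against control in edgeR's fit, with its SE, for shRNA A (upper point, orange) and shRNA B (lower point, violet), on a linear axis of log2 units. Eda2r and Cdkn1a lie above 1 with both shRNAs, Pmaip1 lies at 0.21 with shRNA A and 0.90 with shRNA B, and Mdm2, Bbc3 and Zmat3 lie near 0.

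Seen per library, shRNA B replicate 2 was the highest of its group for 8 of the 10 genes, and shRNA A replicate 1 was the highest of its group for 7. Set against the control mean, log2 ratios of Cdkn1a ran from 1.38 to 1.56 within shRNA A and from 1.58 to 2.33 within shRNA B, and those of Phlda3 from 0.68 to 0.99 and from 0.93 to 1.35. shRNA B replicate 2 also had the highest summed interferon-response level, 590 CPM, and the lowest Camta1. Whether those had a part in its p53 target levels was not tested. Without this library the median log2 fold change of the 10 genes with shRNA B was 0.44. Without control replicate 3, the library with choroid plexus markers, Cdkn1a had log2 fold changes of 1.36 under shRNA A and 1.82 under shRNA B, Eda2r 2.81 and 3.14, Phlda3 0.88 and 1.09, and Ccng1 0.51 and 0.70.

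**Figure D3:**
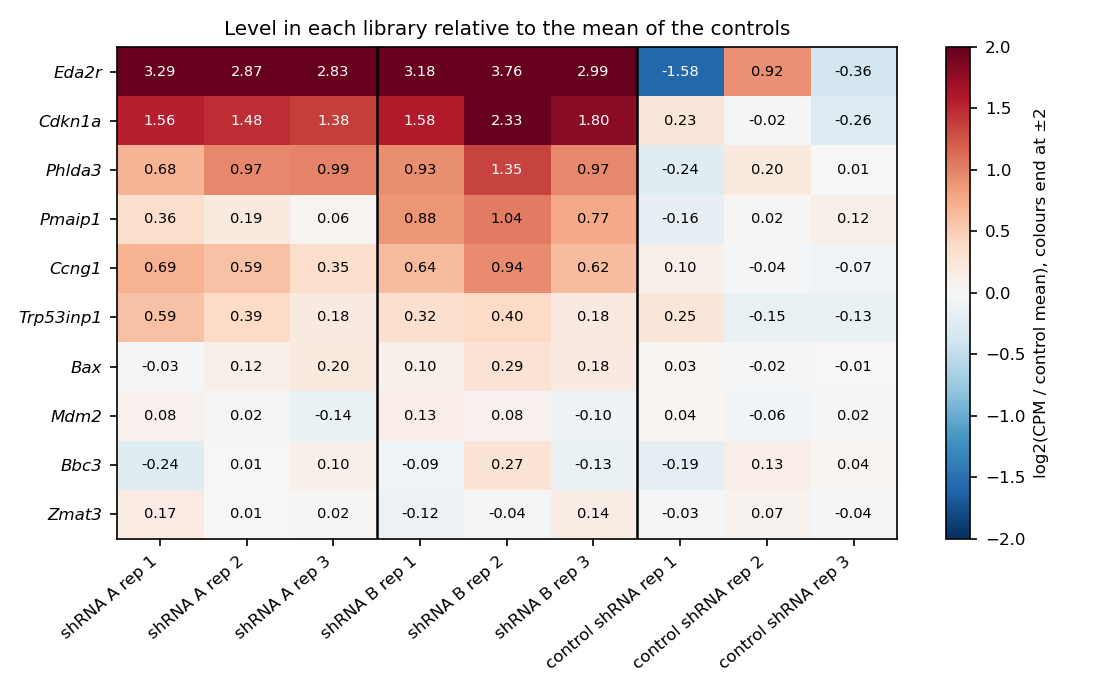
Log2 ratio of each gene's level to the control mean in each library, with colours ending at ±2 and the value printed in each cell; shRNA A, shRNA B and control libraries run from left to right. Eda2r, Cdkn1a, Phlda3, Ccng1, Pmaip1 and Trp53inp1 are positive in all 6 shRNA libraries, and shRNA B replicate 2 has the highest ratio of its group for 8 genes.

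Between both Camta1 shRNAs, 0 of the 10 genes differed by edgeR's quasi-likelihood test with Benjamini-Hochberg adjustment over all genes, where 0% of all genes were called. DESeq2 and limma-voom called 0 of the 10 as well. Of the 10, 2 had an unadjusted p under 0.05, both higher with shRNA B, and 4.55% of all genes did so in that direction, beside 4.79% lower. Pmaip1 averaged 2.05 ± 0.201 CPM with shRNA B and 1.27 ± 0.131 CPM with shRNA A, a difference of 0.69 on the log2 scale (95% interval 0.30 to 1.08, edgeR adjusted p = 0.238). Cdkn1a averaged 39.2 ± 10.9 CPM with shRNA B and 28.3 ± 1.80 CPM with shRNA A, a difference of 0.47 (0.06 to 0.87, edgeR adjusted p = 0.471), which was 0.22 without shRNA B replicate 2. All 3 shRNA B libraries exceeded all 3 of shRNA A for these 2 genes, as for 7.29% of all genes. The intervals for Eda2r, -0.31 to 0.98, and Phlda3, -0.09 to 0.51, allow a difference in either direction. For Ccng1 the interval was -0.04 to 0.41, for Mdm2 -0.12 to 0.21, for Bax -0.07 to 0.25 and for Bbc3 -0.22 to 0.35. Trp53inp1 and Zmat3 were lower with shRNA B than with shRNA A by point estimate, -0.09 (-0.36 to 0.18) and -0.07 (-0.24 to 0.10). Adjusted p over all genes lay between 0.238 and 0.916 for the 10 genes, and a missed threshold does not show that both shRNAs act alike.

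Levels between genes were compared per kilobase of exon, with exon lengths from GENCODE M21. In controls, Bax had the highest level, 26.5 ± 0.531 CPM per kb, followed by Ccng1 with 16.5 ± 1.03. Mdm2 (11.2 ± 0.413), Zmat3 (10.8 ± 0.427) and Phlda3 (9.74 ± 1.48) came next and did not differ from their neighbours beyond their spread. Bbc3 had 5.16 ± 0.565, and Trp53inp1 (3.12 ± 0.503) and Cdkn1a (2.87 ± 0.490) were again within their spread of each other. Pmaip1 (0.402 ± 0.0393) and Eda2r (0.0344 ± 0.0275) were the lowest in CPM per kb. The Cdkn1a level per kb was 7.97 with shRNA A and 11.02 with shRNA B, above that of Bbc3 at 5.04 with shRNA A and 5.27 with shRNA B, whereas in controls Cdkn1a was below Bbc3. Phlda3 at 18 CPM per kb with shRNA A and 20.8 with shRNA B was above Mdm2 at 11.1 and 11.5, whereas in controls it was not.

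Among genes outside the 10, those nearest to Cdkn1a in profile over the 9 libraries were found by the root mean square difference of log2(CPM + 0.5) minus its control mean, over 14520 genes that averaged 1 CPM or more. They were I830012O16Rik (0.432), Gbp3 (0.475), Cox6b2 (0.487), Bst2 (0.489) and Isg15 (0.505). Gbp3, Bst2 and Isg15 are interferon-induced genes, and Cox6b2 encodes a cytochrome c oxidase subunit described mainly in testis. Cox6b2 had log2 fold changes of 1.85 ± 0.25 with shRNA A and 1.47 ± 0.25 with shRNA B. Isg15 had 1.05 ± 0.51 and 2.31 ± 0.49 on the same scale. A profile near that of Cdkn1a selects genes above control, so these differences from control are given as a description with no p-value. The offset of 0.5 CPM shrinks the ratios of genes at a low level, so the order depends on it. The 10 genes were left out of this ranking. Among them Eda2r, below the offset in controls, was nearest to Cdkn1a by the same measure (0.264), nearer than the genes listed.

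The transcript of p53 itself, Trp53 (chromosome 11), measured 18.1, 18.3 and 19.3 CPM with shRNA A and 19.8, 23.8 and 20.9 CPM with shRNA B, against 15.2, 19.2 and 19.4 CPM in controls. The shRNA B libraries lay above the others, with a log2 fold change of 0.26 ± 0.10 that missed the threshold (edgeR adjusted p = 0.31), and shRNA A overlapped the controls at 0.05 ± 0.10 (adjusted p = 0.943). Mdm4, a relative of Mdm2 that inhibits p53, averaged 53.3 ± 6.58 CPM (shRNA A), 53.8 ± 3.84 CPM (shRNA B) and 55.3 ± 4.40 CPM (control). Of 21 tested genes of p53 and its regulators, 0 passed edgeR's adjusted p in any comparison, and 1 higher and 2 lower with shRNA A and 1 higher and 3 lower with shRNA B had an unadjusted p under 0.05. Over all genes, 3.52% were higher and 3.39% lower by that rule under shRNA A, and 6.41% were higher and 6.42% lower under shRNA B. DESeq2 and limma-voom called 0 of the 21 as well. The median log2 fold change was -0.04 with shRNA A and -0.01 with shRNA B. Of the regulators with the most reads, Usp7, a deubiquitinase acting on Mdm2 and p53, had -0.08 ± 0.06 and -0.10 ± 0.06, and Crebbp, an acetyltransferase that modifies p53, had -0.04 ± 0.08 and -0.01 ± 0.08.

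Of 34 further p53 target genes tested, 5 rose with shRNA B (Gtse1, Pidd1, Gdf15, Aen and Ckap2) and 0 fell. Of all genes, 0.779% were called higher and 0.237% lower there. At an unadjusted p under 0.05 in edgeR's test, 12 of the 34 were higher and 1 lower, against 6.41% and 6.42% of all genes. A positive log2 fold change was seen for 23, with a median of 0.14 against 0.00 for all genes. With shRNA A 18 were positive, the median was 0.01 and 0 were called by edgeR. There 7 had an unadjusted p under 0.05, all higher, against 3.52% of all genes higher and 3.39% lower. DESeq2 called 1 of the 34 with shRNA A, Gdf15, and limma-voom 0, while over all genes they called 0.262% and 0%. With shRNA B limma-voom called 2, Gtse1 and Pidd1, and 0.578% of all genes. This list was put together with earlier results of these libraries known, so its direction is not independent evidence. Gtse1, which encodes a microtubule-binding protein that restrains p53 in dividing cells, averaged 1.18 ± 0.260 CPM with shRNA A and 3.096 ± 1.05 CPM with shRNA B, against 0.729 ± 0.325 CPM in controls. Its log2 fold changes were 0.68 ± 0.35 (edgeR adjusted p = 0.744) and 2.07 ± 0.32 (adjusted p = 0.016). Pidd1, the scaffold of the caspase-2 complex, averaged 2.27 ± 0.373 CPM with shRNA A and 3.86 ± 0.793 CPM with shRNA B, against 1.80 ± 0.160 CPM in controls, and rose with shRNA B by 1.095 ± 0.188 (adjusted p = 0.0239).

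Aen, an apoptosis-enhancing nuclease, averaged 20.9 ± 1.47 CPM (shRNA A), 21.3 ± 1.48 CPM (shRNA B) and 16.2 ± 0.397 CPM (control), with log2 fold changes of 0.37 ± 0.08 (edgeR adjusted p = 0.333) and 0.40 ± 0.08 (adjusted p = 0.0423). Ckap2, a spindle protein, averaged 1.31 ± 0.331 CPM (shRNA A), 1.45 ± 0.222 CPM (shRNA B) and 0.619 ± 0.143 CPM (control), with 1.08 ± 0.27 (adjusted p = 0.388) and 1.23 ± 0.26 (adjusted p = 0.0471). Gdf15, a stress-induced secreted factor, rested on 28, 14 and 27 reads with shRNA A and 9, 26 and 16 reads with shRNA B, against 1, 2 and 2 reads in controls. Summed, the depth-corrected ratio of its reads was 13.8 with shRNA A (95% exact interval 5.62 to 43.7, counting error only) and 9.31 with shRNA B (3.74 to 29.9). In edgeR's fit the call held for shRNA B (adjusted p = 0.0431) and not for shRNA A (adjusted p = 0.126). Gdf15 passed the filter on low counts through its shRNA libraries and not through its controls, so this call is description only. Between both shRNAs, 0 of the 34 were called by edgeR and 1, Gtse1, by DESeq2, which called 0.764% of all genes. Without any 1 library the number called with shRNA B lay between 0 and 4, being 0 without control replicate 1 or control replicate 2, 1 (Gtse1) without shRNA B replicate 2 or control replicate 3, and 2 without shRNA A replicate 1.

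**Figure D4:**
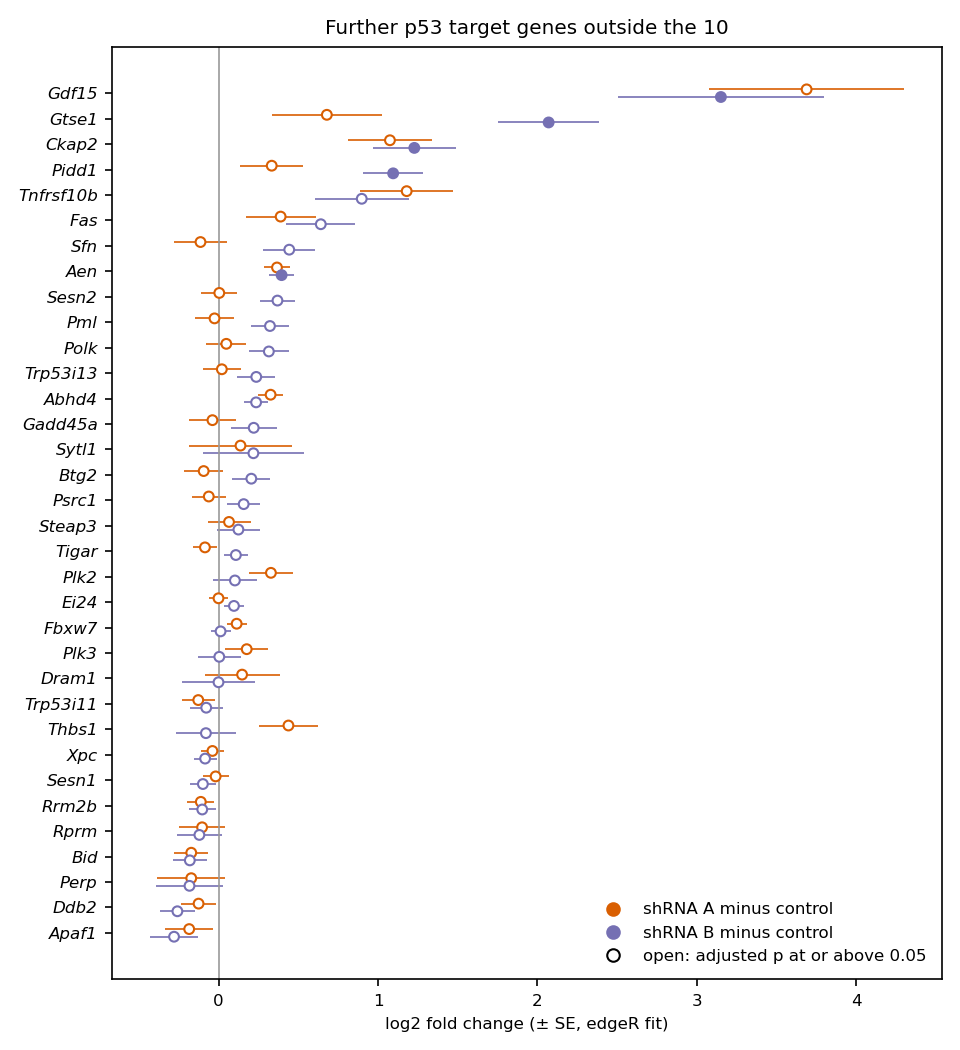
Log2 fold change against control, with SE, of 34 p53 target genes outside the 10, in edgeR's fit, for shRNA A (orange) and shRNA B (violet); filled points have an adjusted p under 0.05 and open points do not. The 5 filled points are Gdf15, Gtse1, Ckap2, Pidd1 and Aen with shRNA B, and most others lie within 0.5 of 0.

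Neighbouring pathways gave 0 calls by edgeR or limma-voom in any of the 3 comparisons, and DESeq2 gave 1, Bcl2, lower with shRNA B than with shRNA A, where it called 0.764% of all genes. Their counts at an unadjusted p under 0.05 stand beside 3.52% of all genes higher and 3.39% lower with shRNA A, and 6.41% higher and 6.42% lower with shRNA B. Among 19 tested BCL-2 family and caspase genes, 3 with shRNA A (all higher) and 4 with shRNA B (2 higher, 2 lower) had an unadjusted p under 0.05, and the median log2 fold change was 0.04 with shRNA A and -0.01 with shRNA B. Bcl2l1, the pro-survival gene for Bcl-xL, averaged 120.7 ± 10.5 CPM (shRNA A), 123.4 ± 10.7 CPM (shRNA B) and 120.4 ± 2.91 CPM (control). Hrk, a neuronal BH3-only gene, averaged 92.1 ± 6.36, 111.6 ± 20.3 and 100.3 ± 10.4 CPM for shRNA A, shRNA B and control. Among 16 tested inhibitors of cyclin-dependent kinases, cyclins and kinases, 4 (2 higher, 2 lower) with shRNA A and 3 (all higher) with shRNA B had such a p, the medians were 0.00 and 0.06, and the D-type cyclin Ccnd1 had log2 fold changes of 0.27 ± 0.12 and 0.07 ± 0.12. Its companion by level, Ccng2 (cyclin G2), had 0.14 ± 0.09 and 0.11 ± 0.09. Among 17 proliferation genes 3 and 5 had such a p, all higher, and the medians were 0.04 and 0.17. Pcna, the replication clamp, averaged 20.8 ± 0.847 CPM (shRNA A), 21.8 ± 0.756 CPM (shRNA B) and 20.97 ± 0.978 CPM (control), and Mcm6, of the replicative helicase, had log2 fold changes of -0.10 ± 0.14 and -0.28 ± 0.14. Among 22 DNA repair genes 1, lower, had such a p with shRNA A, and 4, of which 3 were higher, with shRNA B, the medians were -0.01 and 0.02, and Parp1, a sensor of DNA strand breaks, had 0.16 ± 0.08 and 0.18 ± 0.08. Prkdc, a kinase of double-strand break repair, had -0.14 ± 0.09 and -0.10 ± 0.09.

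Among interferon-response genes 16 of 20 rose with shRNA B, and among microglial genes 5 of 15, where edgeR called 0.779% of all genes higher. Of 20 interferon-response genes, log2 fold changes were positive for 20 under shRNA A (median 0.77) and for 20 under shRNA B (median 2.27). By edgeR 0 of them were called with shRNA A, where 5 were higher at an unadjusted p under 0.05 (3.52% of all genes) and DESeq2 called 1, B2m (0.262% of all genes). Between both shRNAs edgeR called 0, 20 were higher with shRNA B at an unadjusted p under 0.05 (4.55% of all genes), and DESeq2 called 14 (0.764% of all genes). B2m, the light chain of class I molecules, averaged 78.5 ± 6.45 CPM with shRNA A and 123.8 ± 24.4 CPM with shRNA B, against 55.3 ± 3.73 CPM in controls (edgeR adjusted p = 0.414 and 0.0061). Log2 fold changes with shRNA B were 1.59 ± 0.22 for Ifih1, 2.25 ± 0.33 for Rtp4 and 2.47 ± 0.33 for Ifit3, all called. Of 15 microglial genes, 14 were positive with each shRNA, with medians of 0.19 and 0.41. With shRNA A 0 were called by edgeR and 4 were higher at an unadjusted p under 0.05, against 3.52% of all genes, and with shRNA B the 5 that rose were C1qc, C1qa, C1qb, Ctss and Fcer1g. C1qa, a complement subunit, averaged 61.3 ± 4.38 CPM (shRNA A), 82.0 ± 9.24 CPM (shRNA B) and 51.8 ± 3.91 CPM (control). Of 11 astrocyte markers, 8 were positive with shRNA A (median 0.05) and 3 with shRNA B (median -0.03). Aldh1l1 rose with shRNA B (0.47 ± 0.07, edgeR adjusted p = 0.0137), while at an unadjusted p under 0.05 the list had 2 genes higher and 2 lower there. With shRNA B DESeq2 called 3, Aldh1l1 and Gfap higher and Gja1 lower, and 2.44% of all genes. Of 7 meningeal markers, 0 were positive with either shRNA, with medians of -0.57 and -0.63, and 6 with shRNA A and 4 with shRNA B were lower at an unadjusted p under 0.05, against 3.39% and 6.42% of all genes. Slc6a13 among them fell with shRNA B (-0.98 ± 0.19, edgeR adjusted p = 0.0376). The meningeal sum was 23.4 to 29.3 CPM with shRNA A and 25.1 to 29.4 CPM with shRNA B, against 30.9 to 60.3 CPM in controls, so that every shRNA library lay below every control. Oligodendrocyte markers were positive for 10 of 10 genes with shRNA A and 9 of 10 with shRNA B, with medians of 0.43 and 0.35, and their precursors' markers for 6 and 4 of 6, with medians of 0.27 and 0.15 and 3 genes higher at an unadjusted p under 0.05 with shRNA A. The oligodendrocyte sums overlapped, at 4412 to 6917 CPM with shRNA A, 3545 to 7244 CPM with shRNA B and 3137 to 5111 CPM in controls. Choroid plexus medians were -3.97 and -3.24, with control replicate 3 included. Neuronal markers were positive for 1 of 13 genes with each shRNA, with medians of -0.07 and -0.11. At an unadjusted p under 0.05, 2 of them were lower with shRNA A and 1 with shRNA B, against 3.39% and 6.42% of all genes. Markers of endothelium and pericytes were positive for 5 of 9 genes with shRNA A and 1 of 9 with shRNA B, with medians of 0.01 and -0.07. These lists of oligodendrocytes, precursors, choroid plexus, neurons and endothelium gave 0 calls by edgeR, DESeq2 or limma-voom. The part of interferon response, microglia, meninges or any other cell type in the p53 target levels was not tested.

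**Figure D5:**
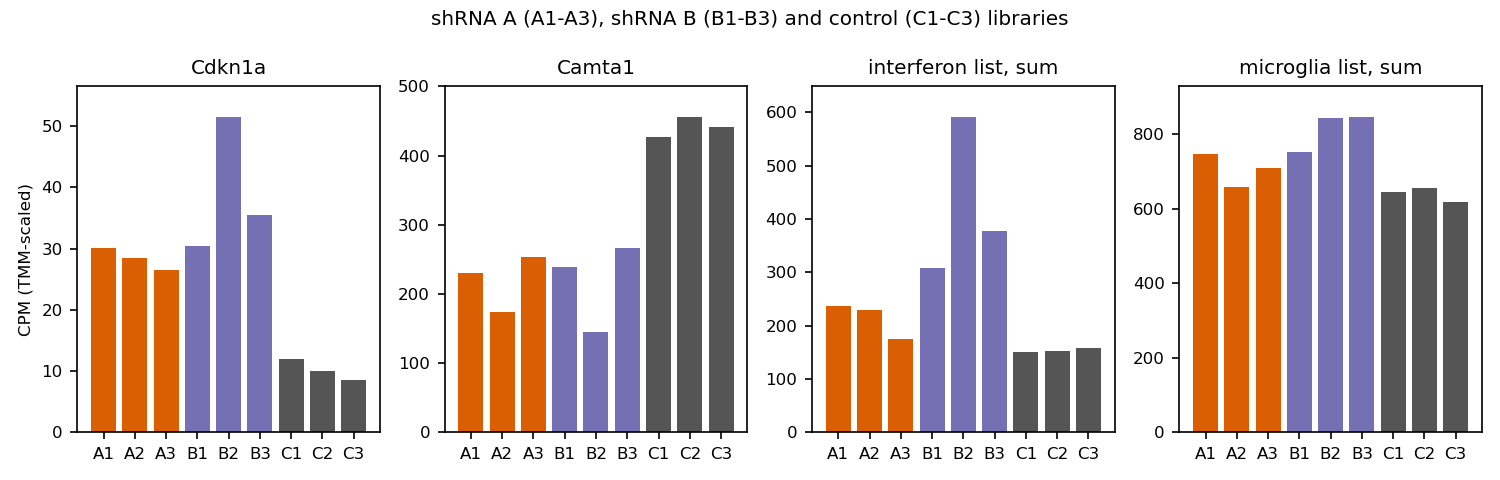
Levels in each library (bars, CPM scaled by TMM, axes from 0) of Cdkn1a, Camta1 and the summed interferon-response and microglial lists, with shRNA A, shRNA B and control libraries from left to right. Cdkn1a and both sums are higher in the 6 shRNA libraries than in any control, and shRNA B replicate 2 has the highest Cdkn1a and interferon sum and the lowest Camta1.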

How the data were processed

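RNA was measured in 9 libraries, 3 per group, from polyA RNA without strand. The authors deposited a table of raw read counts per Ensembl gene, per the file headers, together with a mean normalised signal, log2 fold changes, test scores, standard errors and p-values of their own. Per the submitters' processing notes, the tools were DESeq2 1.4.5 in R 3.1.1, HTSeq 0.6.1, SAMtools 0.1.19 and TopHat 1.4.1, with mouse build mm9. The sources used here give no annotation for the counted genes. The authors' deposited log2 fold changes served as a check only. Every column of sample values had a matching label.

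Deposited counts were tested with edgeR 4.0.16 (quasi-likelihood, robust) in R 4.3.3, with limma 3.58.1, on all 9 libraries after filterByExpr and TMM scaling. P-values are two-sided and adjusted by Benjamini-Hochberg over all 16438 genes tested, with a threshold of 0.05. The SE is derived from the F statistic. Alternatives were DESeq2 1.42.0, limma-voom, other scalings, no filter, no robust estimation, fits of 2 groups, a replicate block and leaving out each library. The method was tested on simulated counts. No replicates matched within counting noise. Depth was 29123744 to 38189288 counts per library. Exact intervals on summed reads cover counting error only, and the other intervals come from edgeR's fit and include the spread between libraries.

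The 10 genes and the pathway and marker lists were chosen with earlier results of these data known. Named genes were the 10 genes, Camta1, Trp53 and Mdm4, the called genes of each list (the 4 with the lowest p if more than 4), the 2 with the highest mean CPM where none was called, and the 5 nearest to Cdkn1a. The fifth called gene of the further targets and of the microglial list is named beside its count. Bcl2l2, Cdkn2d and Trp53cor1 were not analysed here. Promoter sequences come from RefSeq on GRCm38.p6 and exon overlaps and lengths from GENCODE M21 on the same build, not from mm9.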

Additional observations from a re-analysis of the deposited data

How the results depend on the processing

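For genes called with shRNA A (4), DESeq2 gave 43, limma-voom 0, no low-count filter 9, no robust estimation 2 and a fit of 2 groups 18. Of the 10 genes, 1 was called with shRNA A, and DESeq2 gave 4, limma-voom 0 and 2 groups 3. Of the further targets with shRNA A (0), DESeq2, no filter and 2 groups each gave 1. For genes called with shRNA B (167), DESeq2 gave 386, limma-voom 95 and 2 groups 42, and for the further targets (5) limma-voom gave 2, the replicate block 2 and 2 groups 0. Between both shRNAs (0 genes), DESeq2 gave 123, no filter 21 and the replicate block 1, and 1 further target was called by DESeq2.

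Leaving out each library in turn gave 0 to 10 genes with shRNA A, 13 to 217 with shRNA B and 0 to 110 between both shRNAs. Of the 10 genes it called 0 to 3, 2 to 4 and 0 in the same comparisons, with medians of 0.225 to 0.386, 0.443 to 0.619 and 0.05 to 0.19, and of the further targets 0 to 1, 0 to 4 and 0 to 1. These counts support nothing about the 10 genes, whose choice used the same contrasts. With shRNA A, the call of Eda2r was lost on leaving out any of the shRNA A libraries, shRNA B replicate 1, or control replicate 1 or 3, and without robust estimation Cdkn1a was called in its place. With shRNA B, the call of Pmaip1 was lost whichever library was left out, that of Ccng1 without control replicate 2 or 3, and that of Phlda3 without control replicate 3. With the replicate block, 1 of the 10 (Phlda3) was called with shRNA A and 4 with shRNA B. Same-numbered libraries correlated between -0.141 and 0.346 in their deviations from the group means. Correlations between libraries of different numbers were not computed, and the numbers are not treated as pairs.

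Between both shRNAs, the uncalled difference of Bbc3 turned to -0.026 without shRNA A replicate 1 and -0.07 without shRNA B replicate 2, that of Trp53inp1 to 0.017 without shRNA A replicate 1, and that of Mdm2 to -0.013 without shRNA A replicate 3. Over all libraries left out in turn these ran from -0.07 to 0.136, -0.19 to 0.017 and -0.013 to 0.112. The cause was not tested. Depth limits Eda2r and Gdf15 in controls and Pmaip1 throughout.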
